A study of Mus musculus with 27 samples.

Results

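Distal intronic regions are stretches of H3K4-methylated chromatin inside the introns of protein-coding genes and away from any annotated promoter. They were taken from the merged list of H3K4me1, H3K4me2 and H3K4me3 peaks in the embryonic mouse heart. A region was kept when it was at least 1000 bp and under 8000 bp wide, lay over 5 kb from every annotated transcription start site (TSS), lay wholly within the body of a protein-coding gene, and touched no annotated exon. Of 358833 merged regions, 22348 met this rule (6.23%), and they covered 49.5 Mb. The rule used position and width only. The host genes described in detail were chosen by the readout itself, that is, by how many of their distal intronic regions the authors had called decreased, so their counts are descriptions and were given no test.

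The study asked where H3K4 methylation changes when *Kmt2d* is deleted in heart muscle. Hearts of embryos at E11.5 (E, embryonic day) on a C57BL/6 background were compared, with *Tnnt2::Cre;Kmt2d fl/+* as control (1 floxed copy) and *Tnnt2::Cre;Kmt2d fl/fl* as mutant (2 floxed copies). Both genotypes also carried the Cre transgene and the mTmG/+ reporter. There were 8 heart groups, since both genotypes had an input and immunoprecipitations of all 3 marks, and each group had 3 replicates that were pools of 30 hearts. The *Tnnt2* promoter drives Cre in the myocardium, so endocardial, epicardial and blood cells of the mutant hearts keep *Kmt2d*, and the whole hearts that were profiled contain these cells too. A region called decreased may therefore have lost the mark in muscle cells or may be carried by fewer such cells, and these cannot be told apart.

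KMT2D is a methyltransferase of lysine 4 of histone H3 and is known mainly for its work at enhancers, the distal elements that raise transcription of a gene from a distance. Enhancers often lie in long introns of the gene they serve or of a neighbour. Active and primed enhancers carry H3K4me1, and many carry H3K4me2, whereas H3K4me3 is concentrated over promoters. In the deposited lists a region is defined by its coordinates alone. Whether a region is in the authors' list of decreased H3K4me1 or of decreased H3K4me2 is the only readout, and the read depth behind it is unknown. Whether a region acts as an enhancer cannot be read from the lists.

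Of the distal intronic regions, 12 were in both decreased lists, and they are shown because each carries a call for both marks. The middle 300 bases of 4 of the 6 widest are given (the wider ones in *Atp9b*, 6040 bp, and *Pqlc1*, 4440 bp, are not), followed by those of the widest region in the decreased H3K4me1 list and the widest in the decreased H3K4me2 list. All are plus-strand sequence of mm9 (NCBIM37), and capitals mark matches, on either strand, to the short transcription factor motifs described further on. The regions in both lists lay in introns of *Mfhas1* (chr8:36694756-36695055), *1700025G04Rik* (chr1:153802076-153802375), *Gse1* (chr8:123050096-123050395) and *Ttc17* (chr2:94186776-94187075). The widest with decreased H3K4me1 lay in *Cacna1h* (chr17:25544736-25545035), a T-type calcium channel gene. The widest with decreased H3K4me2 lay in *Atf7ip* (chr6:136481066-136481365), which encodes a partner of an H3K9 methyltransferase.
Mfhas1, capitals AP-1: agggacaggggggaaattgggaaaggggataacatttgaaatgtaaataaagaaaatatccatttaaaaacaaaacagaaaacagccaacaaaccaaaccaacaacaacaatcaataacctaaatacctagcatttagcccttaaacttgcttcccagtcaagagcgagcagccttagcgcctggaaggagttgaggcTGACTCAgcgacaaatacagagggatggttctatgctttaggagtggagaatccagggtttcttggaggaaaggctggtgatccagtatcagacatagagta
1700025G04Rik, no match: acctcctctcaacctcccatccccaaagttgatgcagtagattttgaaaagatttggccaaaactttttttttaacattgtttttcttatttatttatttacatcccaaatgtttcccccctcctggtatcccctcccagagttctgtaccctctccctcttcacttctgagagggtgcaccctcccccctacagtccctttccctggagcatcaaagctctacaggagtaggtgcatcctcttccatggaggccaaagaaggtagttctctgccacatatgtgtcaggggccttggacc
Gse1, capitals T-box: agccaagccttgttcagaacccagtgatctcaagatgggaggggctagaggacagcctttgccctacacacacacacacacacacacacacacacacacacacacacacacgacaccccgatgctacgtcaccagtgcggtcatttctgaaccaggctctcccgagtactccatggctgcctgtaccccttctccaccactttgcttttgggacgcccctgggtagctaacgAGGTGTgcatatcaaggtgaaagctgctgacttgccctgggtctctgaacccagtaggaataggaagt
Ttc17, capitals ETS then E-box: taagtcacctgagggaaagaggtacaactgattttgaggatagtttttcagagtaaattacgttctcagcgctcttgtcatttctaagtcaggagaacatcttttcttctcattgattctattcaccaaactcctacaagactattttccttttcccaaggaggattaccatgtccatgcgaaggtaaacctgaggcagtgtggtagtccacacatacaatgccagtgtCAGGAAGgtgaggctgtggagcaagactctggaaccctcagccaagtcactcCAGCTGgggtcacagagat
Cacna1h, capitals E-box: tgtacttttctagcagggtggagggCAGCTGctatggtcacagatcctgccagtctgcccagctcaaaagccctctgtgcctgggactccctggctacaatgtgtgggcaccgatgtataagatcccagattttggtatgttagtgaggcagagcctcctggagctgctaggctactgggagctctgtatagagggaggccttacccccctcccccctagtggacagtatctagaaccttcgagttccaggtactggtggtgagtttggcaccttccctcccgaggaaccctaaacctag
Atf7ip, capitals TEAD: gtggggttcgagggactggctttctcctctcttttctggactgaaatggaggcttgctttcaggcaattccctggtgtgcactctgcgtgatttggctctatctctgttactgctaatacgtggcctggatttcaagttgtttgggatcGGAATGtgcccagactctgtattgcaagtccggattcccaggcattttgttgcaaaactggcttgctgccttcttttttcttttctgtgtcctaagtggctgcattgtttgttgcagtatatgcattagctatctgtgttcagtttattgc

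These windows differed in base composition. The *Cacna1h* window was 55.3% GC and the *Gse1* window 54.7%, while the *Mfhas1* window was 42.3% and the *Atf7ip* window 46.3%. In the *Gse1* window a run of alternating C and A lies before the T-box match.

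To determine how often distal intronic regions were called decreased, their membership in each list was counted. Of the 22348 regions, 549 were in the decreased H3K4me1 list, or 2.46% (95% Wilson interval 2.26% to 2.67%). In the decreased H3K4me2 list there were 205, or 0.917% (0.800% to 1.05%). Over all merged regions the called shares were 0.761% for H3K4me1 and 1.87% for H3K4me2. Over the 80022 merged regions of the same width they were 1.91% and 5.32%. Distal intronic regions thus stood above these backgrounds for H3K4me1 and below them for H3K4me2. They made up 27.9% of merged regions of that width, 35.8% of those in the H3K4me1 list and 4.82% of those in the H3K4me2 list. The intervals cover counting error only and treat regions as independent. The lists hold no value per replicate, so no difference could be set against the spread between pools of hearts, and no test was run.

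Distal regions outside genes gave the opposite balance. Among 24094 regions of the same width over 5 kb from a TSS and outside every annotated gene, 1.45% (1.31% to 1.61%) were in the decreased H3K4me1 list and 431 (1.79%) in the decreased H3K4me2 list. The distal intronic share was 1.01 percentage points higher for H3K4me1 (95% Newcombe interval 0.757 to 1.26). For H3K4me2 it differed by -0.872 points (-1.08 to -0.663). With the intergenic regions weighted to the widths of the intronic ones, their shares were 1.61% and 2.01%, and the differences were 0.848 and -1.09 points. There were 2.68 decreased H3K4me1 calls per decreased H3K4me2 call among distal intronic regions, against 0.810 among intergenic regions.

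Distal regions over exons were nearer to the intronic ones. Of 5406 such regions, 3.13% (2.69% to 3.62%) had decreased H3K4me1 and 0.851% (0.639% to 1.13%) had decreased H3K4me2. The distal intronic share of decreased H3K4me1 differed from theirs by -0.670 points (-1.20 to -0.189), and by -0.410 points after weighting by width. For H3K4me2 the difference was 0.0664 points, with an interval (-0.239 to 0.317) that included 0. Within 5 kb of a TSS, 13.4% of the 26332 regions of this width had decreased H3K4me2 and 1.62% had decreased H3K4me1.

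The share called decreased was higher in each wider class for H3K4me1 and less steadily so for H3K4me2. Among distal intronic regions below 1500 bp, 0.890% (0.710% to 1.11%) had decreased H3K4me1, and among those of at least 6000 bp the share was 8.10% (6.21% to 10.5%). For H3K4me2 it was 0.474% (0.349% to 0.645%) in the narrowest class, 1.26% (0.979% to 1.62%) from 2000 to below 3000 bp, 2.50% (1.85% to 3.38%) from 4000 to below 6000 bp and 1.75% (0.978% to 3.10%) in the widest. Intergenic regions rose less for H3K4me1, to 4.07% (2.44% to 6.71%) in the widest class, and more for H3K4me2, to 6.40% (4.26% to 9.49%). Distal regions over exons were nearer to the intronic ones in that class, at 8.33% (5.11% to 13.3%) for H3K4me1. For H3K4me2 they stood at 1.11% (0.305% to 3.96%). Median widths were 2800 bp for decreased H3K4me1, 2520 bp for decreased H3K4me2 and 1740 bp for regions in neither list. The part of width in the calling itself was not tested.

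**Figure D1:**
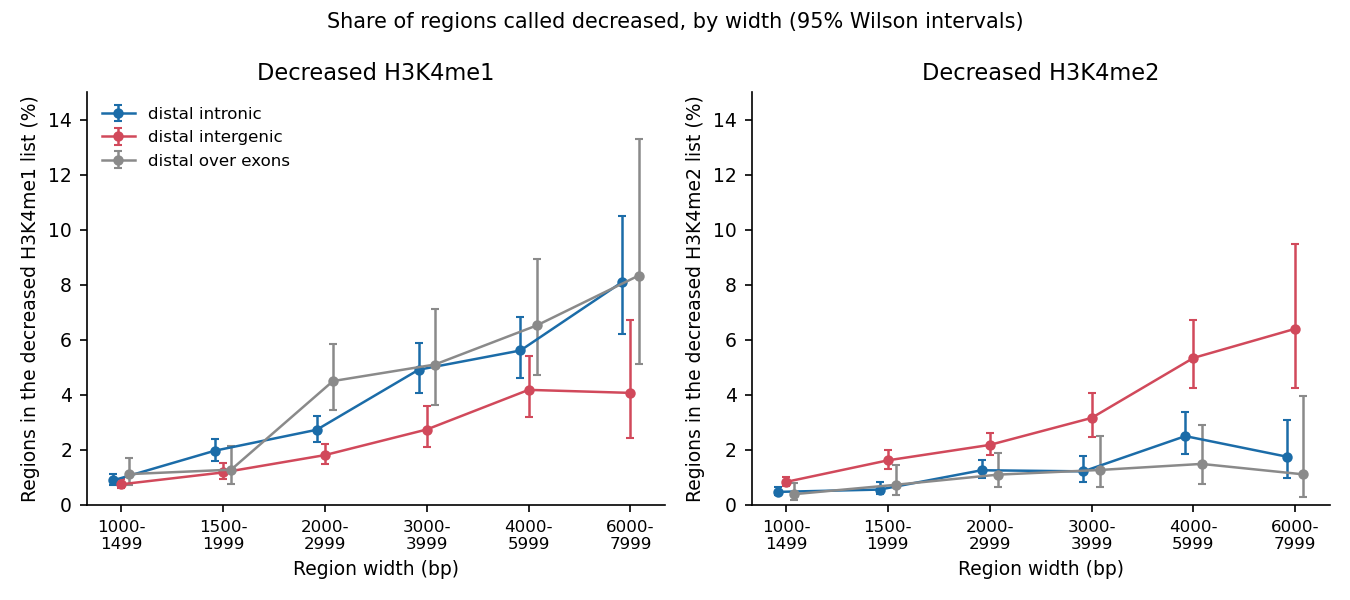
Share of regions in the decreased H3K4me1 list (left) and decreased H3K4me2 list (right) in percent, against region width in bp, for distal intronic regions, distal intergenic regions and distal regions over exons. Points are shares and bars are 95% Wilson intervals. For H3K4me1 the intronic share reached 8.10% and the intergenic share 4.07% in the widest class, and for H3K4me2 they were 1.75% and 6.40%. Regions over exons stood at 8.33% for H3K4me1 and 1.11% for H3K4me2 in that class.

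Shares just inside and just outside the bounds of the rule are given as a description. Intronic regions from 800 to below 1000 bp, just outside the rule, had decreased H3K4me1 in 0.576% of 5208 cases, and those from 1000 to below 1200 bp in 0.692% of 4044. At the upper bound the share was 10.8% of 231 regions of 7000 to below 8000 bp and 4.93% (2.41% to 9.83%) of 142 regions of 8000 to below 9000 bp. Regions 4 to 5 kb from a TSS had decreased H3K4me1 in 1.67% of 959 cases, and those 5 to 6 kb away in 2.28% of 965.

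Base composition differed between the lists. Regions with decreased H3K4me1 had a mean GC content of 48.8% ± 3.65 (SD, n = 549 regions), those with decreased H3K4me2 45.2% ± 4.27 (n = 205), and those in neither list 45.2% ± 4.19 (n = 21606). When the distal intronic regions were divided into 5 even classes of GC content, 18 of 4472 in the lowest class (0.403%, 0.255% to 0.635%) and 280 of 4470 in the highest (6.26%, 5.59% to 7.01%) had decreased H3K4me1. The 3 classes between gave 0.738%, 2.04% and 2.84%, so the share was higher at each step. Decreased H3K4me2 was flat, at 0.873% to 0.962% in every class.

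The same classes were then examined by width. Below 2000 bp the share with decreased H3K4me1 went from 0.334% in the lowest class of GC content to 3.21% in the highest. From 2000 to below 4000 bp it went from 0.653% to 8.84%. At 4000 bp or more none of 249 regions in the lowest class (upper Wilson limit 1.52%) and 77 of 545 in the highest (14.1%, upper limit 17.3%) had decreased H3K4me1. Among these wide regions decreased H3K4me2 lay the other way, at 4.42% (2.48% to 7.74%) in the lowest class and 1.65% (0.871% to 3.11%) in the highest, with intervals that overlapped. The share with decreased H3K4me1 was highest where regions were both wide and rich in GC. The part of GC content in the calling itself was not tested.

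The gradient was not particular to introns. Over the same GC classes the intergenic share with decreased H3K4me1 went from 0.107% to 3.26%, and the share over exons from 0.363% to 5.64%. In the highest class the intronic share (5.59% to 7.01%) lay above the intergenic one (2.85% to 3.73%) without overlap. For H3K4me2 the intergenic share rose from 0.937% to 2.60%, whereas the intronic share did not rise. The H3K4me2 share over exons did not rise either, at 0.847% in the lowest class and 0.820% in the highest. It lay between 0.497% and 1.27% over the classes.

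**Figure D2:**
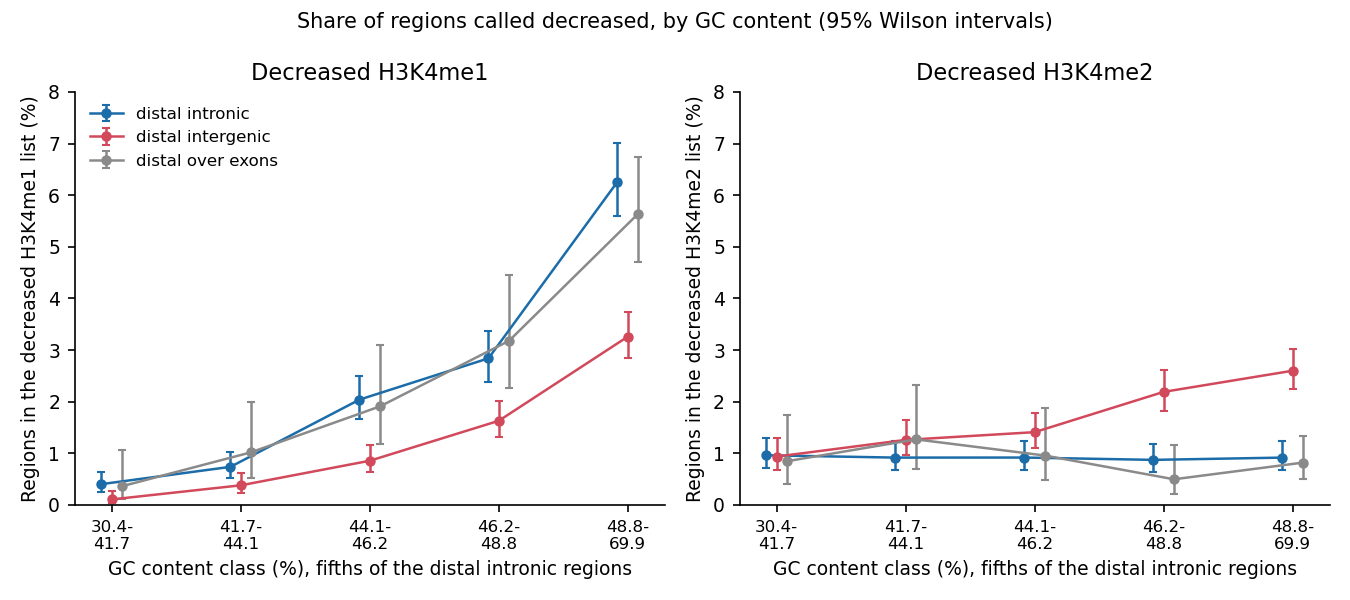
Share of regions in the decreased H3K4me1 list (left) and decreased H3K4me2 list (right) in percent, by GC content of the whole region in percent, in the 5 classes that divide the distal intronic regions evenly. Points are shares and bars are 95% Wilson intervals. The intronic H3K4me1 share rose from 0.403% to 6.26%, and the intronic H3K4me2 share stayed between 0.873% and 0.962%.

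Shares were also counted by position within the gene. Classes of distance to the nearest TSS gave decreased H3K4me1 in 2.80% (2.34% to 3.35%) at 5 to 10 kb, 2.71% at 10 to 20 kb, 2.38% at 20 to 50 kb, 1.92% (1.52% to 2.42%) at 50 to 100 kb and 2.28% (1.72% to 3.02%) beyond 100 kb. Decreased H3K4me2 was found in 1.05% (0.786% to 1.41%) at 5 to 10 kb and in 0.582% (0.333% to 1.01%) beyond 100 kb. First introns held 33.6% of the regions, and 2.47% of these had decreased H3K4me1, against 2.77% in second introns, 2.26% in later ones and 3.25% in last introns, with overlapping intervals. The median host intron was 46.3 kb long for decreased H3K4me1, 40.7 kb for decreased H3K4me2 and 49.3 kb for all. Along the gene body from the 5′ end, the H3K4me1 share lay between 2.20% and 2.79% in each of 5 equal parts.

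The 22348 regions lay in 4690 host genes, of which 564 (12.0%) held at least 1 decreased region and 114 held 2 or more. The latter hosts carried 304 of the 742 decreased regions (41.0%). In 78 of them all losses were of H3K4me1 alone, in 13 of H3K4me2 alone, and 23 had losses of each mark. These hosts were long. The median length was 223 kb with 2 or more decreased regions and 77.2 kb with none. Hosts with more distal intronic regions had more losses, but not a larger share: 3.15% of regions were decreased in hosts with 1 region and 3.25% in hosts with 20 or more. Over these size classes a higher count of losses therefore went with a higher number of regions, and each host is given beside its total. This does not describe each host named below. Those 25 were picked by their counts, and their decreased shares ran from 4.21% in *Fgfr2* to 60.0% in *Abtb2*.

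*Cacna1c*, which encodes the pore-forming subunit of the L-type calcium channel that triggers contraction, held the most decreased regions of any gene under 2500 kb. Of its 48 distal intronic regions, 12 had decreased H3K4me1 and none decreased H3K4me2. They were 1960 to 7140 bp wide, with GC contents of 42.9% to 51.4%, and spanned 281 kb. The first of them from the 5′ end were a pair in intron 1 (chr6:119044086-119048925 and chr6:119011926-119019065). The others lay in intron 3, which is 272 kb long, and the last was at chr6:118767906-118772285, 374 kb from the 5′ end. Beyond it, distal intronic regions continued to the 3′ part of the gene without a loss.

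The other hosts named for their count of losses are given here by their known role, and this grouping was not tested. Some encode proteins of excitation or calcium release. *Ryr2*, the calcium release channel of the sarcoplasmic reticulum, had decreased H3K4me1 in 3 of 19 regions, all in its 160 kb first intron (chr13:12109926-12114125, chr13:12092446-12095925 and chr13:12048466-12052565). *Camk2d*, the main calcium-dependent kinase of heart muscle, had 4 of 18, and the losses were split evenly between the marks. Here a region with decreased H3K4me1 (chr3:126358266-126360205) and one with decreased H3K4me2 (chr3:126360846-126364845) lay side by side in intron 2. *Cacna2d2*, an auxiliary calcium channel subunit, had decreased H3K4me1 in 3 of 7 regions, in introns 1, 2 and 3. *Kcnq1*, a potassium channel of repolarisation, had it in 4 of 22, of which the widest (chr7:150569426-150577105, 7680 bp) lay in its last intron.

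Other hosts of the 25 encode transcription factors or chromatin proteins. *Prdm16*, a zinc finger factor mutated in cardiomyopathy, had decreased H3K4me1 in 7 of 28 regions, from 8.66 to 223 kb from its 5′ end and in introns 1, 2 and 3. The widest was chr4:153781266-153788305 (7040 bp). *Foxn3*, a forkhead repressor, had 4 regions with decreased H3K4me1 and 1 with decreased H3K4me2 among 28, all within 59.1 kb of intron 4. In *Cux1*, a homeodomain factor, 4 of 32 regions had decreased H3K4me1, and in *Bcl11b*, a zinc finger factor, 3 of 8. *Arid1b*, a subunit of the BAF remodelling complex, had 2 losses of H3K4me1 and 1 of H3K4me2 among 37.

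Others encode proteins of the cytoskeleton or of cell contacts. *Ank3*, which encodes the membrane scaffold ankyrin-G, was the host with the most H3K4me2 losses among the named genes, together with *Eif4e3*, a cap-binding factor. *Ank3* had 3 losses of H3K4me2 and 2 of H3K4me1 among 33 regions, and *Eif4e3* had 3 of H3K4me2 among 33. For 2 of the 3 in *Eif4e3* no single protein-coding transcript held the region in an intron. *Myo18b*, an unconventional myosin of striated muscle, had decreased H3K4me1 in 4 of 8 regions, each in a different intron. *Plekha7*, an adherens junction protein, had 3 losses of H3K4me1 and 1 of H3K4me2 among 9 regions, and *Cdh4*, a cadherin, had 3 and 1 among 14. *Nav2* and *Nav1*, microtubule-binding neuron navigators, had decreased H3K4me1 in 5 of 26 and 3 of 10 regions. *Sh3pxd2a*, an adaptor of podosomes, had 2 losses of H3K4me1 and 1 of H3K4me2 among 20.

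The remaining hosts were signalling genes or genes of less clear function in the heart. *Gsg1l*, an auxiliary subunit of AMPA-type glutamate receptors, had decreased H3K4me1 in 6 of 21 regions, in 5 different introns. *Agap1*, an Arf GTPase-activating protein, had it in 5 of 37, of which the first 2 (chr1:91359306-91365925 and chr1:91366766-91368705) were neighbours near the 5′ end. In *Adcy5*, a main adenylyl cyclase of the heart, 3 of 10 regions had it, and these were 3 consecutive regions. *Abtb2* had it in 3 of 5, likewise consecutive, and *Rgs6*, a regulator of G protein signalling, in 3 of 38.

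Some counts rest on very long gene models. *Gm20388* had 13 decreased regions, the most of any host, but its annotated body is 4435 kb long with a first intron of 4384 kb, and it held 237 regions. Its 5 decreased regions that also lie in another protein-coding gene were in *1190005I06Rik*, *Banp*, *Fbxo31*, *Galnt2* and *Gse1*. The annotated body of *Fgfr2*, a receptor for fibroblast growth factors, is 3009 kb long with an intron of 2957 kb. All 4 of its decreased regions among 95 also lay in *Btbd16*, *Ctbp2* or *Tacc2*, so none is in *Fgfr2* alone.

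**Figure D3:**
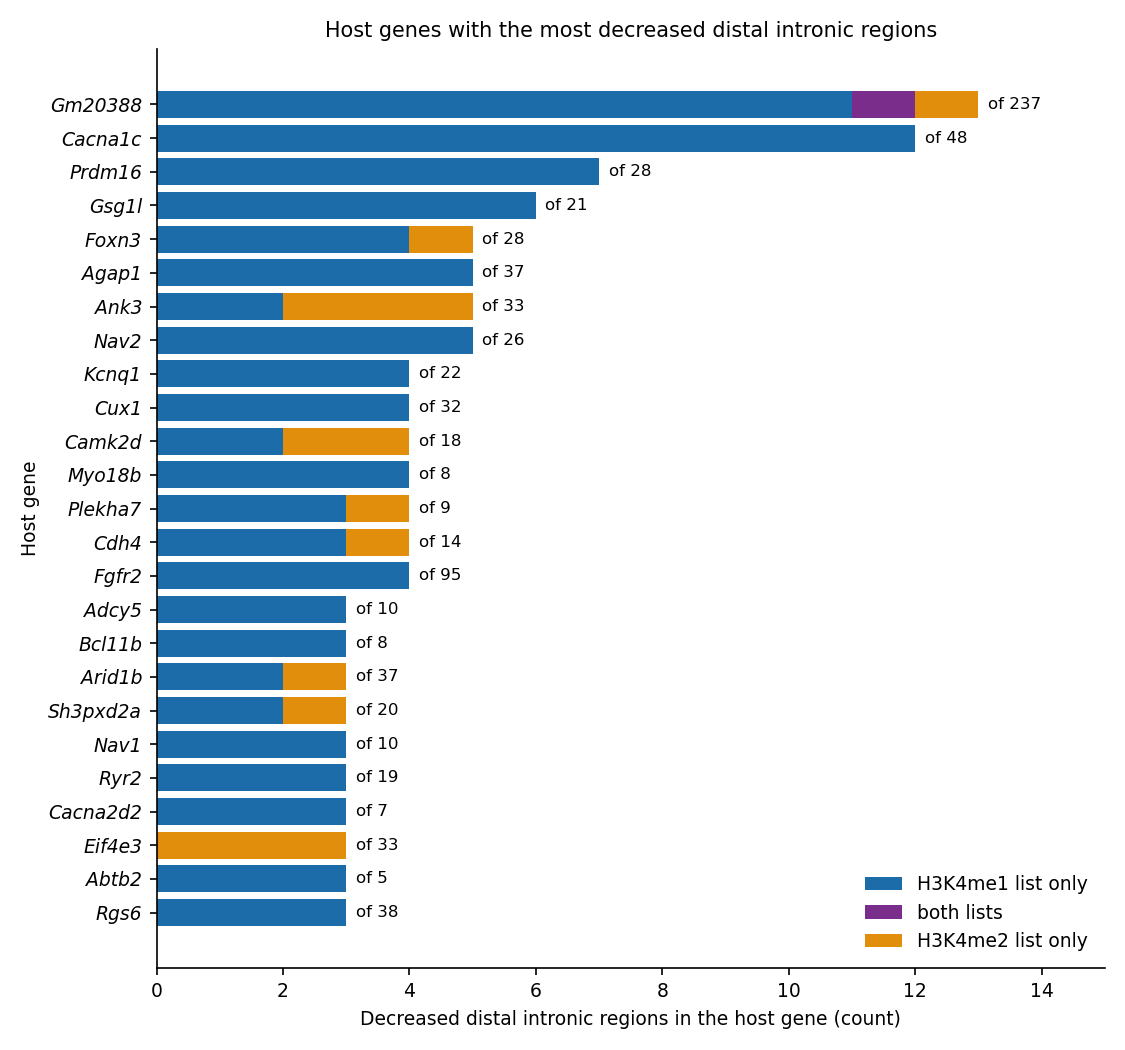
Number of decreased distal intronic regions (horizontal axis, count) in the 25 host genes with the most, coloured by list. The text beside each bar gives the number of distal intronic regions in that gene. *Gm20388* (13 of 237) and *Cacna1c* (12 of 48) lead, and H3K4me1 makes up most losses in all but *Ank3*, *Camk2d* and *Eif4e3*.

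Some long genes with many regions had no loss. Of the 192 hosts with 20 or more regions, 94 (49.0%) held a decreased region. The 5 hosts with the most regions and none decreased were *Ptprg*, a receptor tyrosine phosphatase (53 regions), *Cdkal1*, a tRNA-modifying enzyme (51), *Lpp*, a LIM protein of focal adhesions (47), *Magi1*, a junctional scaffold (46), and the transcription factor gene *Mecom* (46). *Ptprg* is 689 kb long, near the 604 kb of *Cacna1c*.

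**Figure D4:**
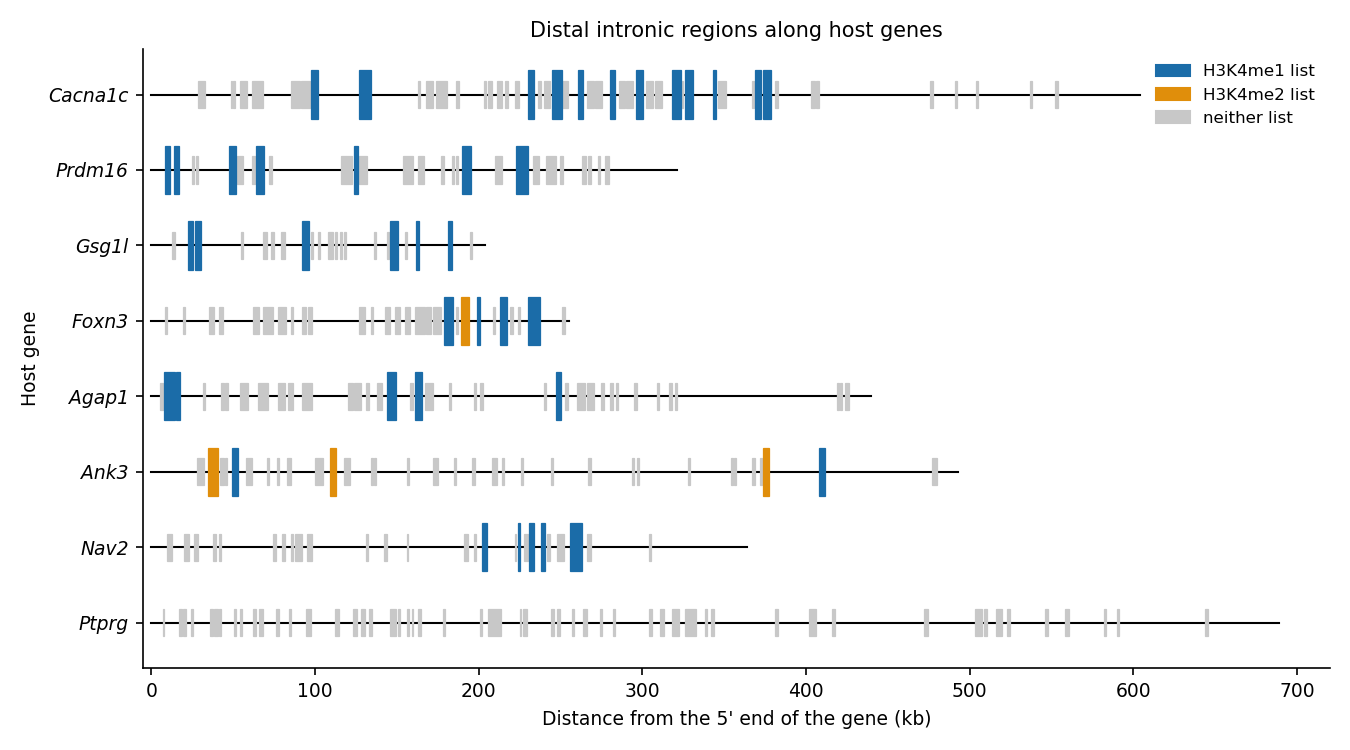
Distal intronic regions along 7 host genes with many losses and along *Ptprg*, which has none, drawn to scale in kb from the 5′ end of the annotated gene. Tall blue boxes are regions with decreased H3K4me1, tall orange boxes those with decreased H3K4me2, and short grey boxes those in neither list. The 12 losses of *Cacna1c* lie between 97.3 and 374 kb from its 5′ end, and those of *Foxn3* lie together in its last part.

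To see whether losses lay next to one another, the nearest distal intronic region in the same host was examined. Of 513 regions with decreased H3K4me1 and such a neighbour, 41 (7.99%, 5.95% to 10.7%) had a nearest neighbour with decreased H3K4me1 as well. For regions without decreased H3K4me1 the share was 2.39% (2.19% to 2.61%). For H3K4me2 the shares were 1.06% (0.292% to 3.80%, 2 of 188) and 0.887% (0.768% to 1.03%), with intervals that overlapped. Regions that are each nearest to the other were both counted, and the intervals treat them as independent. The median gap to the nearest region was 2.66 kb for regions with decreased H3K4me1 and 3.54 kb for those without. The part of this gap, of GC content and of width in this pairing was not tested.

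The promoters of the host genes were examined next. A TSS of the host lay in a merged region for 407 of 411 hosts with decreased H3K4me1 in an intron (99.0%) and for 93.5% of the 4126 hosts with no loss. A TSS lay in a region with decreased H3K4me2 in 32.4% (28.0% to 37.0%) of the former and 31.3% (29.9% to 32.8%) of the latter. Among the 187 hosts with decreased H3K4me2 in an intron it did in 39.6% (32.8% to 46.7%). For decreased H3K4me1 over a TSS the shares were 6.81% (4.76% to 9.67%), 1.31% (1.00% to 1.70%) and 3.21% (1.48% to 6.82%). Hosts with any loss were longer than those with none (median 142 kb against 77.2 kb). Neither gene length nor the number of TSS per host was matched, and their part in these shares was not tested. Of the 25 named hosts, *Prdm16*, *Plekha7*, *Sh3pxd2a* and *Ryr2* had decreased H3K4me1 over a TSS as well as in introns. Decreased H3K4me2 lay over a TSS of *Gm20388*, *Agap1*, *Ank3*, *Camk2d*, *Myo18b*, *Plekha7*, *Fgfr2*, *Adcy5*, *Bcl11b*, *Arid1b* and *Abtb2*. *Cacna1c*, *Gsg1l*, *Foxn3*, *Nav2*, *Kcnq1*, *Cux1*, *Cdh4*, *Nav1*, *Cacna2d2*, *Eif4e3* and *Rgs6* had neither mark called decreased over any TSS.

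The 12 regions in both lists were 2.19% of the 549 distal intronic regions in the H3K4me1 list and 5.85% of the 205 in the H3K4me2 list. Among intergenic regions of the same width 13 were in both. The intronic ones were 1280 to 7520 bp wide (median 3270 bp). Among them are the regions whose sequences are shown, in *Mfhas1* (chr8:36691146-36698665), *1700025G04Rik* (chr1:153798806-153805645), *Gse1* (chr8:123047146-123053345) and *Ttc17* (chr2:94185146-94188705). A region in intron 10 of *Ldb3* (chr14:35361246-35363885), which encodes a Z-disc protein, and one in the first intron of *Tln2* (chr9:67310066-67312685), which encodes the adhesion protein talin 2, were also in both. The rest lay in *Atp9b*, *Pqlc1*, *Lyrm4*, *Pcnxl2*, *Ctnnbl1* and *Pbx3*. No host gene held more than 1 of them.

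At the ends of the width range, the widest region with decreased H3K4me1 was that of *Cacna1h* (chr17:25540906-25548865, 7960 bp), in intron 2 of 34. The widest with decreased H3K4me2 was that of *Atf7ip* (chr6:136477266-136485165, 7900 bp). The widest in neither list lay in *Pdzrn3* (chr6:101229546-101237525, 7980 bp). The narrowest with decreased H3K4me1 was 1000 bp wide, a width shared by 4 such regions, among them one in *March11* (chr15:26252326-26253325). The narrowest with decreased H3K4me2 was also 1000 bp wide, in *Atrnl1* (chr19:58122426-58123425).

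Host genes were then grouped in 12 lists of heart and comparison genes, with 335 genes in all and none in more than 1 list. The lists were drawn up with earlier results of these data known, so their shares and their order are descriptions only. Each list was read against the shares over all distal intronic regions, 2.46% for H3K4me1 and 0.917% for H3K4me2. Where given, the share of all distal intronic regions of the same widths was a second reference. GC content was not matched, although the H3K4me1 share differed strongly between GC classes. The part of GC content in the differences between lists was not tested. The calling of a region over a TSS did not separate cell types, since it was found for 42 of 42 sarcomere genes, 24 of 25 endothelial genes and 27 of 28 neuronal genes. 

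Genes of calcium handling had the highest H3K4me1 share of any list with over 100 regions. In 22 host genes, 25 of 254 regions (9.84%, 6.76% to 14.1%) had decreased H3K4me1, against 3.13% for all regions of the same widths. *Cacna1c* supplied 12 of the 25, and without it 13 of 206 (6.31%) remained. *Cacna1h* had decreased H3K4me1 in both of its regions. Decreased H3K4me2 was found in 3 of the 254 (1.18%, 0.402% to 3.41%).

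Ion channel, pump and connexin genes had 8 of 111 regions with decreased H3K4me1 (7.21%, 3.70% to 13.6%, against 2.53% for the same widths), and 4 of 89 (4.49%) without *Kcnq1*. *Hcn4*, the pacemaker channel gene, had 2 of 3, in introns 1 and 2 (chr9:58680046-58687745 and chr9:58692806-58696365). *Kcnk3*, a background potassium channel, had 1 of 3. *Kcnd3*, a channel of the transient outward current, had 2 of 15 regions with decreased H3K4me2 and none with decreased H3K4me1.

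Cardiac transcription factor genes had 16 of 288 regions with decreased H3K4me1 (5.56%, 3.45% to 8.83%, against 3.08% for the same widths). *Prdm16* held 7 of them, and without it 9 of 260 (3.46%) were decreased. *Tbx5*, a factor of atrial and left ventricular development, had 2 of 3, in introns 7 and 8 (chr5:120305746-120313485 and chr5:120322506-120328885). *Esrrg*, an orphan nuclear receptor of oxidative metabolism, had 2 of 53 with decreased H3K4me1 and 1 with decreased H3K4me2. *Tead1*, the effector of Hippo signalling, had 1 of 10.

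Sarcomere and Z-disc genes had 5 of 117 (4.27%, 1.84% to 9.62%, against 2.52%), of which 3 of 30 lay in *Fhod3*, a formin of sarcomere assembly. *Smyd1*, a muscle methyltransferase, had 1 of 3. *Ldb3* had 1 of 3, the region in both lists. Without *Fhod3* the list had 2 of 87 (2.30%).

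Adhesion genes of the intercalated disc and costamere went the other way in counts, with 4 of 237 regions in the H3K4me1 list (1.69%, 0.658% to 4.26%) and 7 in the H3K4me2 list (2.95%, 1.44% to 5.97%, against 0.918% for the same widths). These intervals overlapped, and that for H3K4me1 included the 2.46% over all distal intronic regions. The 7 lay in *Ank3*, *Cdh2*, *Tln2* and *Sgcd*. *Ank3* supplied 2 of the 4 and 3 of the 7, and without it 2 of 204 (0.980%) and 4 of 204 remained. *Cdh2*, the N-cadherin gene of the intercalated disc, had 2 of 14 with decreased H3K4me2, and *Sgcd*, a sarcoglycan gene, had 1 of 14. Growth factor signalling genes had 8 of 309 with decreased H3K4me1 (2.59%, 1.32% to 5.02%), and 4 of 214 (1.87%) without *Fgfr2*. *Igf1r*, the receptor of insulin-like growth factor, had 2 of 24, *Bmp7*, a bone morphogenetic protein, had 2 of 4, and *Erbb4*, the neuregulin receptor, had 2 of 22 with decreased H3K4me2.

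The lists of cells that keep *Kmt2d* held few regions, as did the list of H3K4 methyltransferases and their partners, and nothing is read from their shares. Endothelial and endocardial genes had 1 of 73 regions with decreased H3K4me1 (1.37%, 0.242% to 7.36%), in *Pecam1*, and 2 with decreased H3K4me2 (2.74%, 0.755% to 9.45%), in *Vwf* and *Erg*. Smooth muscle genes had decreased H3K4me1 in 1 of 49 (2.04%, 0.361% to 10.7%), in *Mylk*. Erythroid genes had it in 1 of 13 (7.69%, 1.37% to 33.3%), in *Bcl11a*. Epicardial and mesenchymal genes had none of 14 (upper Wilson limit 21.5%), and genes of the H3K4 methyltransferases and their partners none of 10 (27.8%). Each of these intervals included the share over all distal intronic regions.

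Neuronal genes, in contrast, had many regions and few losses of H3K4me1. Their 24 host genes held 383 distal intronic regions, of which 2 had decreased H3K4me1 (0.522%, 0.143% to 1.88%) and 1 decreased H3K4me2 (0.261%, 0.0461% to 1.46%). All distal intronic regions of the same widths had decreased H3K4me1 in 2.10% and decreased H3K4me2 in 0.835%. The neuronal interval for H3K4me2 included the latter. *Auts2*, a gene of neuronal development, had 1 loss among 82 regions, *Opcml*, a cell adhesion gene, 1 among 24, and *Nrxn3*, a neurexin, 1 among 17.

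**Figure D5:**
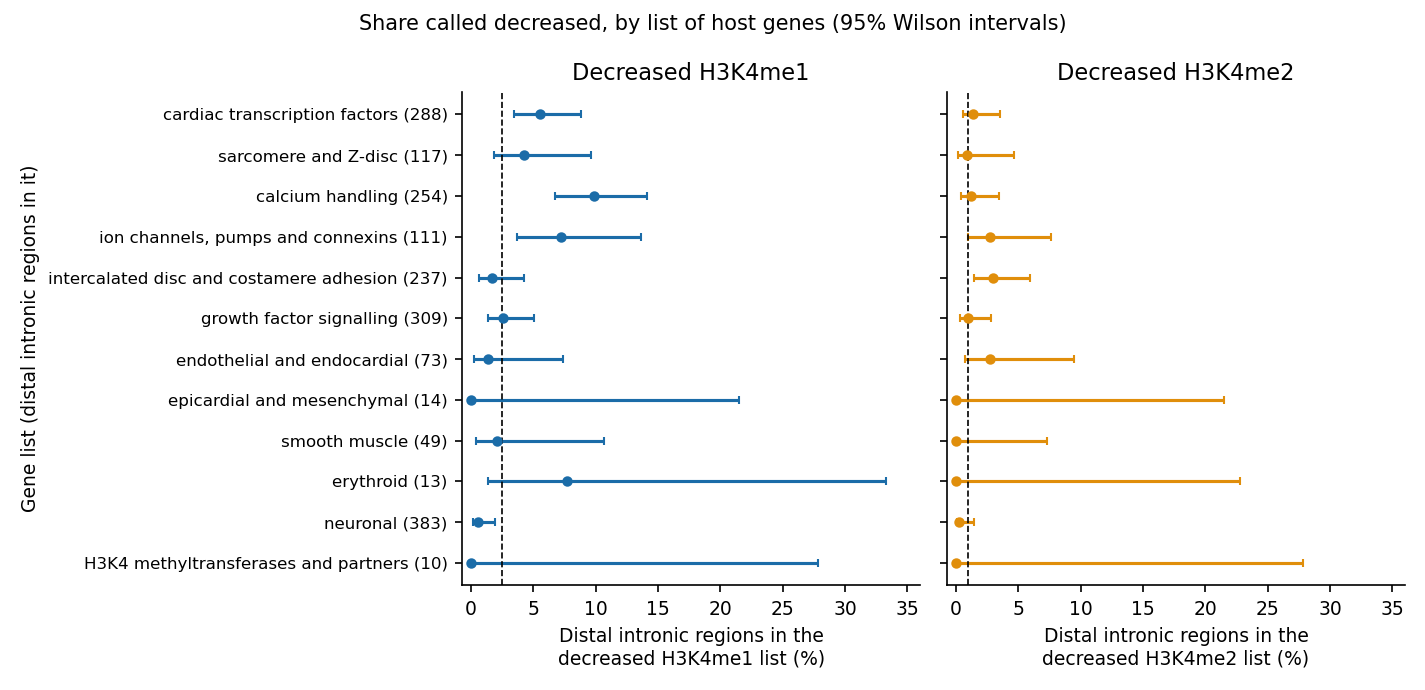
Share of distal intronic regions in the decreased H3K4me1 list (left) and decreased H3K4me2 list (right) in percent, for the host genes of each list, with the number of regions in parentheses. Points are shares, bars are 95% Wilson intervals and dashed lines are the shares over all distal intronic regions. For H3K4me1 calcium handling genes stood at 9.84% and neuronal genes at 0.522%.

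The middle 300 bp of each region was searched, on both strands, for short motifs of transcription factors that act in the heart. A match is a description of sequence and not a binding site. Mean GC content was 48.8% in regions with decreased H3K4me1 and 45.2% in those in neither list. It was not matched, and its part in the motif shares was not tested. The T-box motif AGGTGT was found in 19.3% (16.2% to 22.8%) of regions with decreased H3K4me1, 12.7% (8.80% to 17.9%) of those with decreased H3K4me2 and 14.7% (14.2% to 15.1%) of those in neither list. It was found in 15.1% of all 185302 merged regions of at least 300 bp. The GATA motif AGATAA was in 16.6% (13.7% to 19.9%) of regions with decreased H3K4me1, 20.9% (20.3% to 21.4%) of those in neither list and 19.6% of all merged regions. The GC box GGGCGG was in 7.47% (5.55% to 9.97%) of regions with decreased H3K4me1, 8.78% (5.63% to 13.5%) with decreased H3K4me2, 4.51% in neither list and 7.06% of all merged regions. 

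The ETS core CAGGAAG was in 41 of 205 regions with decreased H3K4me2 (15.1% to 26.0%), 12.8% (10.2% to 15.8%) with decreased H3K4me1, 13.5% in neither list and 13.7% of all merged regions. The AP-1 motif TGANTCA was in 7.47% (5.55% to 9.97%) of regions with decreased H3K4me1, 10.7% with decreased H3K4me2 and 10.1% in neither list, against 9.83% of all merged regions. The TEAD motif GGAATG was in 16.9% of regions with decreased H3K4me1 and 18.5% with decreased H3K4me2, and in 17.6% of all merged regions. The E-box CAGCTG was in 18.6% and 12.7% of these, in 16.8% of those in neither list and in 17.0% of all merged regions. For the other 6 motifs, which were the NKX2 motif TNAAGTG, the MEF2 site, the CArG box, the E-box CACGTG, the MEIS motif CTGTCA and the HRE core ACGTGC, the intervals of the decreased and the other regions overlapped. In all merged regions of at least 300 bp these 6 were found in 17.2%, 1.06%, 1.62%, 4.30%, 23.2% and 4.00%, respectively. No motif searched contains another, but the HRE core shares the letters ACGTG with the E-box CACGTG.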

How the data were processed

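Regions were analysed from 3 deposited lists, which give coordinates only, with no count, score or P value per region. The authors called peaks in H3K4me1, H3K4me2 and H3K4me3 ChIP-Seq libraries, merged them over replicates and marks, and deposited the merged list and the lists of regions with decreased H3K4me1 and H3K4me2 in mutant hearts, called at the authors' false discovery rate. The submitters' processing notes name CASAVA 1.8.2, FastQC, Bowtie, Bowtie2, SAMtools and mm9. The peak caller and the test behind the lists were not given in the sources used here.

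The last region of each of 21 chromosomes ended inside the NCBIM37 (mm9) sequence. All 2730 and 6699 decreased regions had an identical merged region, and a decreased call is such a match. The length of the deposited H3K4me2 list differs from the number the study describes, and the list was used as deposited. TSS, exons and gene bodies came from GENCODE vM1 (37310 genes, 95495 transcripts). A region inside several protein-coding genes (330 regions) was counted for each in counts over genes and once elsewhere. The intron was taken from the longest protein-coding transcript that held the region. Shares have 95% Wilson intervals and differences Newcombe intervals. No library depth was available, and no test was run. Named were the 25 hosts with the most decreased regions (ties by decreased width), the 5 with the most regions and none decreased, every region in both lists, the widest and narrowest decreased regions of each list, the widest in neither, and up to 4 hosts per gene list. Samples were grouped by their titles. The members, gene lists and motifs were chosen with earlier results of these data known. Calculations used Python 3.11.15, numpy 2.4.6 and pandas 2.3.3, and were checked on simulated lists. Alternatives are given in the closing section. The 3 KMT2D ChIP-Exo libraries, H3K4me3 changes and expression were not analysed here.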

Additional observations from a re-analysis of the deposited data

How the results depend on the processing

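Over 6 results and 9 other settings, 45 of 54 values changed by less than their counting interval or, for counts, by at most 1.5 times, and 9 moved. The largest change among these 45 was in the count of regions in both lists, which went from 12 to 18 with a TSS distance over 2 kb. None changed direction. All 9 came from the width bounds. With widths from 500 bp the share with decreased H3K4me1 was 1.51% and that with decreased H3K4me2 0.591%, and the differences from intergenic regions were 0.628 and -0.438 percentage points. With widths from 2000 bp the shares were 4.13% and 1.50%, the differences 1.65 and -1.56 points, and 73 hosts had 2 or more decreased regions. The setting that left out gene models over 2500 kb (*Gm20388* and *Fgfr2*) was chosen after seeing the data, and it left 22113 regions, a share of 2.45% and 112 such hosts. Because decreased and merged regions have identical coordinates, an overlap of 1 bp gave the same values by construction. Its 6 values are among the 45 and say nothing about stability. No paired analysis was possible because the lists carry no value per replicate. The lists hold no read counts, and losses too weak to be called are not seen.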

Other observations

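Distal intronic regions were also counted by chromosome. The share with decreased H3K4me1 was highest on chromosome 7, at 3.58% of 1146 regions (95% Wilson interval 2.65% to 4.82%), and among autosomes lowest on chromosome 10, at 1.28% of 1176 (0.774% to 2.09%). On the X chromosome it was 0 of 152, with an upper limit of 2.46%. For decreased H3K4me2 the highest share was 1.67% of 1261 regions on chromosome 11 (1.09% to 2.53%) and the lowest 0.482% of 1038 on chromosome 14 (0.206% to 1.12%). CpG dinucleotides per 100 bp had a median of 1.21 in regions with decreased H3K4me1 (quartiles 0.975 and 1.49), 1.15 in those with decreased H3K4me2 (0.833 and 1.56) and 1.05 in those in neither list (0.754 and 1.38).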
